A study of Mus musculus with 20 samples.

Results

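The genes described here are 48 genes of the cell cycle and of DNA replication, taken from a list of names: all 48 were found among the 15465 genes with values in the breast cancer (BC) columns of the deposited table. The list was set by gene name and not by any measured value. It, the other gene lists and the tests were chosen with earlier results of these data known. The series compared primary tumours with metastases in a pancreatic (PDAC) and a breast cancer mouse model, by RNA sequencing of bulk tissue. The comparison below used 8 of its 20 libraries, 4 labelled BC primary tumor and 4 labelled BC Lung metastatic tumor, all labelled as 4T1 derived and sampled at 28 days. 4T1 is a mouse mammary carcinoma line that spreads to the lung when grown in mice, and the labels describe orthotopic models, so every tumour of this comparison comes from 1 line. The labels give no strain, sex or treatment for these mice. The number in each title was read as the mouse, since the series text calls primary tumours and metastases matched. On that reading mouse 1 to mouse 4 each gave 1 primary tumour and 1 lung metastasis. The 12 PDAC libraries were not used, because their values did not follow the gene names beside them (Spearman's rho of 0.1 across 15465 rows between the BC and PDAC means, against 0.92 between the means of the 2 BC tissues).

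A dividing cell passes from G1 through DNA synthesis (S phase) and G2 to mitosis. D-type and E-type cyclins start the passage by switching on cyclin-dependent kinases (CDKs), which release E2F transcription factors; E2F targets load and fire replication origins and supply nucleotides. Cyclin A and cyclin B with CDK1 then drive mitosis, carried out by kinases, kinetochore proteins and motors whose genes are largely switched on late in the cycle by FOXM1 and MYBL2. In tumour tissue the level of such transcripts is widely used as a sign of how many cells are cycling.

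Values are normalised read counts, that is, gene reads per scaled library of about 1000000 reads, and were not divided by gene length, so levels are compared between libraries and not between genes. The libraries held 15447918 to 28995834 reads, the fewest in lung metastasis 3, and each of the 48 genes had at least 85 reads in every library. All 9 tumour epithelial markers had reads in all 8 libraries. In the test described below, 1 was called higher in metastases (Krt19, a keratin), against 7.18% of all genes. Another 1 was called lower (Cldn4, a tight junction gene), against 1.96%, and 7 were not called. The summed level of 10 lung epithelial markers was 14.3 to 50.4 in primary tumours and 7460 to 34100 in lung metastases, with all 10 markers highest in lung metastasis 3. Lung metastasis 3 thus stood apart from the other metastases in depth and in lung signal, and results that rest on it are given with and without it. In bulk tissue, fewer cells of a type and less RNA per cell cannot be told apart. Reads of the 9 tumour epithelial markers cannot be divided between tumour and lung epithelium either.

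The promoters are shown for 6 of the genes, because E2F and late cell cycle genes are known to be controlled through short promoter motifs. RefSeq promoters (build GRCm38.p6) were matched for 37 of the 48 genes, in 40 windows of 250 bases before the start site; Kif20a, Aurkb, Foxm1, Gins2, Cdc25c, Mcm4, Tpx2, Ccnd2, Ccne2, Ccnd1 and Ccna2 were not matched. The E2F motif was searched as TTTCCCGC, TTTGGCGC, TTTCGCGC or TTTGCCGC, the CHR (the cell cycle homology region of late cell cycle genes) as TTTGAA or TTTAAA, and the NF-Y box as CCAAT, all on both strands and with overlapping matches kept. The 3 genes shown for the E2F motif and the 3 shown for the CHR are, among the genes named by rule that hold each motif, those with the largest log2 change of either sign. Capitals mark the matches of all 3 motifs. Each stretch runs 5′ to 3′ on the gene's strand and ends at the base before the start site. The E2F examples are genes that load or form the replication helicase:
Cdc6, chr11:98908001-98908150, plus strand: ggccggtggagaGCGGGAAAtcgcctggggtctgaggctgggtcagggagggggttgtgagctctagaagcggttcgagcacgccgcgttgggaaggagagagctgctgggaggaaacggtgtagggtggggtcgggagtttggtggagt
Mcm5, chr8:75109259-75109508, plus strand: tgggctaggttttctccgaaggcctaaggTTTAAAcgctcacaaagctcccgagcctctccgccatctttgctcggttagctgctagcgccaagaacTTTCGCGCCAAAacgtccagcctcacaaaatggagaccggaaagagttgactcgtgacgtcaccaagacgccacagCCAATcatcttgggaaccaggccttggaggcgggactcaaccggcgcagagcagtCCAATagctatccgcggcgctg
Mcm7, chr5:138171884-138172133, minus strand: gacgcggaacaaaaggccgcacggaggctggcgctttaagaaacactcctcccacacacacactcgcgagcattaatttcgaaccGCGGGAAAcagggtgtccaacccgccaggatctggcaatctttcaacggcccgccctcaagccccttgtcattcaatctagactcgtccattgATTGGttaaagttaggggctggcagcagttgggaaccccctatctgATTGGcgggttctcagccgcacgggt
The CHR examples are E2f2 (at the downstream of its 2 start sites), Top2a and Cenpf:
E2f2, chr4:136180632-136180781, plus strand: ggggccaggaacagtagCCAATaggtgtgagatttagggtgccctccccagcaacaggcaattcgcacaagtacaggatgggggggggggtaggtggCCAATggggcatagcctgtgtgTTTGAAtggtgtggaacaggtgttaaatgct
Top2a, chr11:99024190-99024439, minus strand: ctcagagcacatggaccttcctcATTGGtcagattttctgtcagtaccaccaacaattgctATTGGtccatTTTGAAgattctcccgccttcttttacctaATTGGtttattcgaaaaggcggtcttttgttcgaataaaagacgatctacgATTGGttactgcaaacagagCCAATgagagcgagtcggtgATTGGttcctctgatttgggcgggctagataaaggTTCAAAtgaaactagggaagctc
Cenpf, chr1:189688087-189688336, minus strand: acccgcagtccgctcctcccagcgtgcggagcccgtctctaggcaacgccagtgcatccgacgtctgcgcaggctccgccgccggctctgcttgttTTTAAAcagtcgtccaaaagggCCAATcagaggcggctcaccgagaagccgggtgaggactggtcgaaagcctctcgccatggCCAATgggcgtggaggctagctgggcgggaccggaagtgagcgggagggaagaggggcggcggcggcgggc
In Mcm5 the capitals hold 2 overlapping E2F matches, 1 on each strand, and in Top2a 6 NF-Y boxes in either orientation lie beside 2 CHR matches, of which the nearer begins 23 bases before the start. An E2F match stood in 5 of the 40 windows (12.5%), against 1.86% of all 32851 windows in the table. CHR matches stood in 18 windows (45%, against 25.2%) and NF-Y boxes in 30 (75%, against 33.8%). Of the 12 windows of replication and nucleotide genes 4 held an E2F match and 3 a CHR match, whereas of the 20 windows of Mki67, Top2a and mitotic genes 1 held an E2F match and 12 a CHR match. A match is a description of letters in this window and shows no binding.

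Across the 48 genes most levels were somewhat higher in lung metastases, but the spread between mice was as large as the difference, and only Top2a passed the test. The test was limma on log2(value + 1), fitted on the 14003 genes that reached 1 in 4 or more of the 8 libraries. Calls were made where the p, adjusted by Benjamini and Hochberg's method, was under 0.05, and all 48 genes entered the test. By this rule 1 of the 48 genes was called higher, against 7.18% of all genes tested, and 0 were called lower, against 1.96%. The log2 change (lung metastasis minus primary tumour) had a median of 0.35 over the 48 genes, with a range of -0.30 to 1.48, and a median of -0.06 over all genes. It was above 0 for 40 of the 48 genes, against 45.1% of all genes. At an unadjusted p under 0.05 there were 5 genes, Top2a, Ccnd3, E2f2, Aurka and Kif20a, and 0 in the other direction (13.9% and 9.16% of all genes). On the reads recovered from the table, edgeR called Top2a and E2f2 (6.02% of all genes), DESeq2 called Top2a, E2f2 and Ccnd3 (10.5%), and neither called any of the 48 lower. With array weights, which give a library less weight the more it deviates, limma called 15 of the 48 higher (11.0%), and with the mouse as a block it called 0 (6.68%). The median log2 change with array weights was 0.61, near the 0.62 without lung metastasis 3. The limit given below for leaving out that library may therefore apply to the 15 calls too, and these are descriptive.

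**Figure D1:**
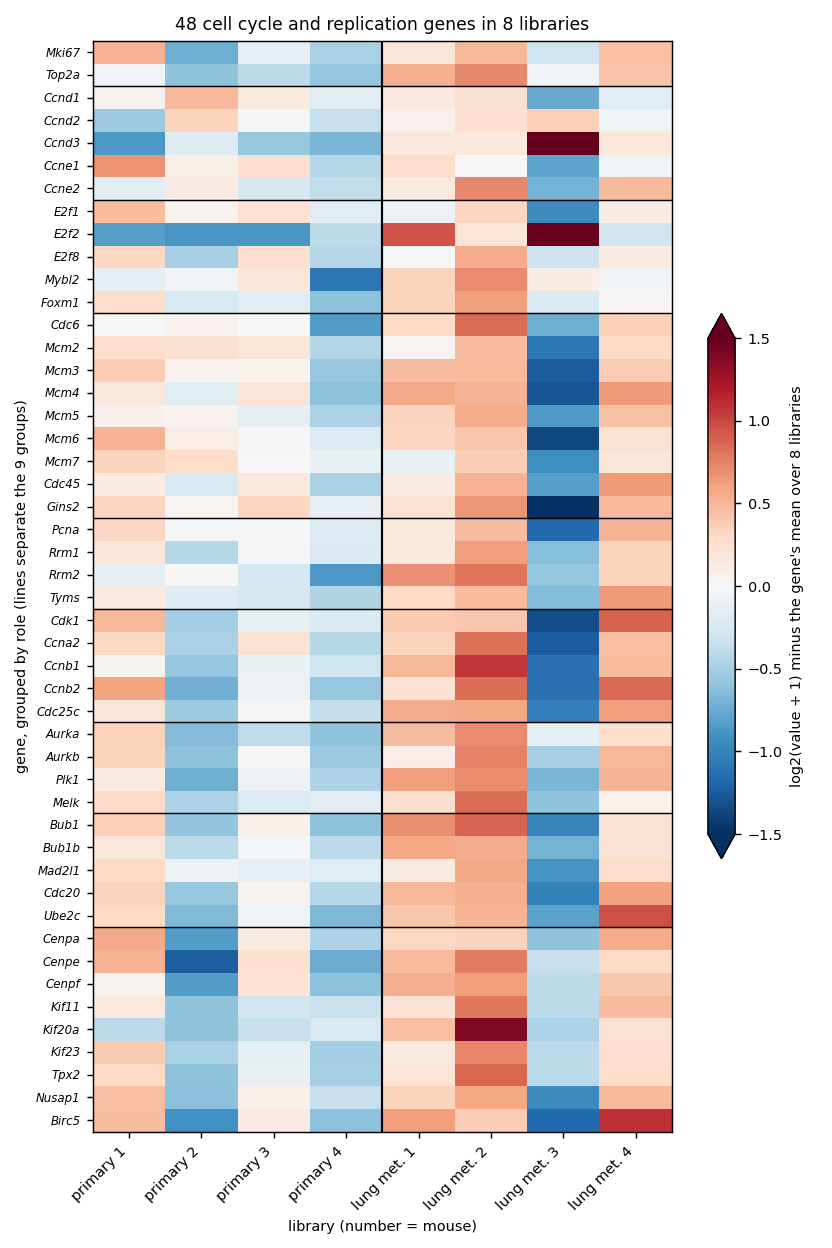
Heat map of the 48 genes (rows, grouped by role) in the 8 libraries (columns, numbered by mouse); colour is log2(value + 1) minus the gene's mean over the 8 libraries, red above and blue below the mean. Lung metastases 1, 2 and 4 are mostly red, and lung metastasis 3 is blue for most genes but dark red for Ccnd3 and E2f2.

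The direction differed between mice. In mouse 2, 45 of the 48 genes were higher in the metastasis than in the primary tumour, with a median log2 difference of 1.05, and in mouse 4 47 were, with a median of 0.85. Mouse 1 was near balance, with 28 genes higher and a median of 0.08. In mouse 3 only 5 of the 48 genes were higher in the metastasis, Top2a, Ccnd2, Ccnd3, E2f2 and Aurka, with a median of -0.72. Over all genes tested the share higher in the metastasis was 49.5% in mouse 1, 52.1% in mouse 2, 47.0% in mouse 3 and 47.9% in mouse 4. Levels varied within both tissues. Primary tumour 1 was the highest of the 4 primary tumours for 36 of the 48 genes. Primary tumour 2 was the lowest for 24 and primary tumour 4 for 22. No share over all genes was computed for these ranks of the primary tumours. Lung metastasis 3 was the lowest of the 4 metastases for 44 of the 48 genes, against 40.0% of all genes, and the lowest of all 8 libraries for 28, against 34.1%. The exceptions were Ccnd2, Ccnd3, E2f2 and Mybl2, which were lowest in lung metastasis 4 (33.7% of all genes).

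Leaving out each library in turn changed the count most for lung metastasis 3. Without it limma called 11 of the 48 genes higher and 0 lower (5.82% and 2.74% of all genes), the median log2 change was 0.62, and 45 of the 48 changes were above 0 (46.7% of all genes). The 11 genes were Top2a, Ccnd3, Mcm4, Mcm5, Rrm2, Tyms, Ccnb1, Plk1, Ube2c, Kif11 and Kif20a, that is, 1 G1 cyclin (Ccnd3) and 10 genes of the chromosome marker, helicase, nucleotide and mitotic groups. For 20 of the 48 genes the 3 remaining metastases lay above all 4 primary tumours, against 10.6% of all genes. The library left out was the lowest metastasis for 44 of the 48 genes, against 40.0% of all genes. Leaving it out therefore favours higher counts for these genes. The shares of all genes are then not a like comparison, and adjusted p-values without it, here and below, are descriptive. With all 8 libraries the groups did not overlap for 3 genes, Top2a, Ccnd3 and E2f2, against 10.4%, and in 0 genes did all metastases lie below, against 7.56%. Without lung metastasis 3 edgeR called 6 of the 48 higher (4.64% of all genes). Without both libraries of mouse 3 limma called 6 (4.77%), and 5 with the mouse as a block (4.50%). Leaving out any other library gave 0 or 1 called gene: Top2a without primary tumour 1, E2f2 without lung metastasis 4 and none without the others. Lung metastasis 3 was singled out after these values were seen, and its depth, its lung signal and its low cell cycle levels come together in 1 library, so their parts in the result were not tested.

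**Figure D2:**
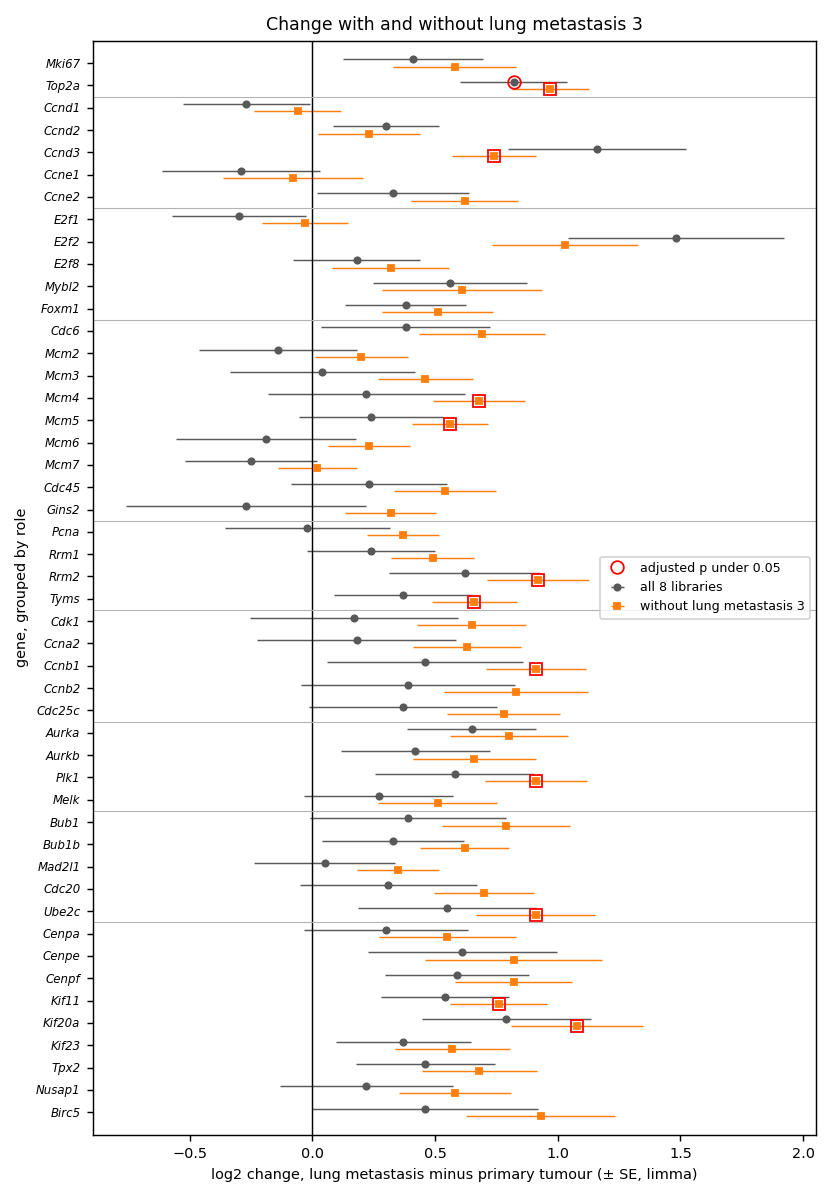
Log2 change (lung metastasis minus primary tumour, limma, bars are ± SE) of each of the 48 genes, with all 8 libraries (grey circles) and without lung metastasis 3 (orange squares); red outlines mark an adjusted p under 0.05. With all libraries 1 gene is outlined, and without lung metastasis 3 there are 11.

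Mki67 and Top2a are the common histological and transcript markers of cycling cells; Mki67 encodes the protein that coats mitotic chromosomes, and Top2a the topoisomerase that untangles sister chromatids. Top2a stood at 418, 288, 332 and 291 in primary tumours 1 to 4 and at 632, 720, 425 and 590 in lung metastases 1 to 4. Each metastasis lay above every primary tumour, although lung metastasis 3 exceeded primary tumour 1 only narrowly. The mean was 592 ± 124 (SD, n = 4) against 332 ± 60.6, a log2 change of 0.82 (SE 0.218, limma adjusted p = 0.0407), and Top2a was higher in the metastasis of 4 of 4 mice. The call ended with the mouse as a block (adjusted p = 0.0763), with each column set to the same total (0.0558) and without primary tumour 2, 3 or 4 or lung metastasis 1, 2 or 4 (0.0692 to 0.142). It also ended without both libraries of mouse 1 (0.175), 2 (0.245) or 4 (0.196), while without lung metastasis 3 the adjusted p was 0.00354. Mki67 was not called, although its lowest and highest libraries within each tissue were the same as those of Top2a. It stood at 379, 158, 241 and 187 in the primary tumours and at 299, 371, 213 and 357 in the metastases (log2 change 0.41, SE 0.285, adjusted p = 0.428), and was higher in the metastasis of 2 of 4 mice, with overlapping groups.

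Among the G1 cyclins, which bind CDKs at the start of the cycle, 0 of 5 genes passed, with changes from -0.29 (Ccne1) to 1.16 (Ccnd3). Ccnd3, cyclin D3, stood at 33, 52.9, 40.6 and 37.3 in the primary tumours and at 67.9, 68.2, 221 and 67.9 in the metastases (SE 0.363, adjusted p = 0.0773). The groups did not overlap, the metastases of mice 1, 2 and 4 were nearly equal, and lung metastasis 3 stood over 3 times as high as these. Ccnd2 stood at 32.8 to 61.2 in primary tumours and at 46.2 to 62.5 in metastases (adjusted p = 0.435). Ccnd1, the D cyclin most linked to mammary tumours, stood at 601, 811, 636 and 516 in the primary tumours and at 643, 681, 342 and 510 in the metastases (log2 change -0.27). The 3 D cyclins thus differed in lung metastasis 3, where Ccnd1 was at its lowest of 8 libraries and Ccnd3 at its highest. Ccnd2 (62.5 there) barely exceeded its level in primary tumour 2 (61.2).

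The E2F factors, Mybl2 and Foxm1 turn on the S phase and mitotic programmes; 0 of these 5 genes passed with limma. E2f2, an activating E2F, stood at 9.22, 8.87, 8.93 and 12.8 in the primary tumours and at 33.9, 19.9, 75.9 and 14 in the metastases. All metastases exceeded all primary tumours, but the metastases spread more than 5-fold among themselves, and the change of 1.48 (SE 0.44) had an adjusted p of 0.0641 (0.0493 with edgeR and 0.00222 with DESeq2). E2f1, another activator of the same family, ran the other way in lung metastasis 3, at 27 there against 49.7 to 66.6 in the other metastases and 47.3 to 74.3 in primary tumours. Mybl2 stood at 12.4, 13.3, 15.8 and 5.99 in the primary tumours and at 17.8, 23.2, 15.1 and 13.4 in the metastases (adjusted p = 0.322). The change was 0.18 for E2f8, an E2F repressor, and 0.38 for Foxm1, without passing.

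Replication licensing genes had the lowest median change of the 9 role groups and were low in lung metastasis 3. Cdc6 loads the MCM helicase on origins, Mcm2 to Mcm7 form its ring, and Cdc45 and Gins2 complete the active helicase. None of these 9 genes passed, and their median log2 change was 0.04 (range -0.27 to 0.38). Lung metastasis 3 was the lowest metastasis for all 9 and lay below every primary tumour for 8. The mean log2 value of the group was 5.08 in that library, 6.47 to 6.76 in the other metastases and 5.79 to 6.46 in primary tumours. Cdc6, whose promoter with 1 E2F match is shown above, stood at 23.2, 24.2, 23 and 12.5 in the primary tumours and at 28.5, 42, 13.5 and 29.7 in the metastases. Mcm5, with overlapping E2F matches, stood at 98.1, 96.1, 84.6 and 66.7 and at 117, 137, 51.2 and 126. In both genes the metastases of mice 1, 2 and 4 exceeded all primary tumours. Mcm7 did not show this order, at 141, 135, 111 and 103 in the primary tumours and 103, 144, 57.8 and 127 in the metastases. Without lung metastasis 3, Mcm5 (log2 change 0.56, SE 0.154, adjusted p = 0.0477) and Mcm4 (0.68, SE 0.187, 0.0486; named after its values were seen) were past the threshold and the group's median was 0.46. Mcm7 then stood at 0.02 in place of -0.25, so its direction rested on that library.

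Nucleotide supply and the replication clamp followed the same order of libraries. Rrm2, the regulated subunit of ribonucleotide reductase, stood at 68.1, 75.9, 62.6 and 40.9 in the primary tumours and at 121, 132, 50.1 and 95 in the metastases (log2 change 0.62, SE 0.307, adjusted p = 0.257). Tyms, thymidylate synthase, stood at 46.8, 36.6, 35.2 and 30.6 and at 51.9, 58.9, 26.4 and 66.1. For both, lung metastasis 3 lay within or below the primary tumours and the other metastases above them. Without lung metastasis 3 the change was 0.92 (SE 0.208, adjusted p = 0.0203) for Rrm2 and 0.66 (SE 0.174, 0.0418) for Tyms. Rrm1, the large reductase subunit, and Pcna, the sliding clamp, had changes of 0.24 and -0.02 with all libraries and passed under neither set of libraries.

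CDK1, its cyclins and its activating phosphatase Cdc25c had positive changes for 5 of 5 genes, from 0.17 (Cdk1) to 0.46 (Ccnb1), and 0 passed. Ccnb1, cyclin B1, stood at 43.1, 27.5, 38.9 and 33.6 in the primary tumours and at 59, 88.8, 18.6 and 58.2 in the metastases (SE 0.399, adjusted p = 0.525). Cdc25c stood at 16.9, 9.82, 14.6 and 11.3 and at 22.3, 22.7, 6.76 and 23.3. In both genes lung metastasis 3 was the lowest of 8 libraries, as it was for all 5 genes of this group, and the other metastases were the highest. Without lung metastasis 3 the change was 0.91 (SE 0.204, adjusted p = 0.0187) for Ccnb1 and 0.78 (0.0633) for Cdc25c.

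The mitotic kinase genes had changes of 0.27 to 0.65, of which 0 of 4 passed. Aurka, the spindle pole kinase Aurora A, stood at 54.3, 26.7, 32.6 and 27.6 in the primary tumours and at 59.4, 70, 38.8 and 51 in the metastases (log2 change 0.65, SE 0.263, adjusted p = 0.171). Its metastasis exceeded its primary tumour in 4 of 4 mice, and the groups overlapped only through primary tumour 1. Plk1, which acts in mitotic entry and exit, stood at 42.4, 22.8, 36.3 and 27.7 and at 60.1, 63.9, 23.7 and 55.5 (adjusted p = 0.316, and 0.0218 without lung metastasis 3).

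The spindle checkpoint (Bub1, Bub1b, Mad2l1) holds anaphase back until chromosomes are attached, and Cdc20 and Ube2c act with the anaphase promoting complex that then releases it. Positive changes of 0.05 (Mad2l1) to 0.55 (Ube2c) were seen for 5 of 5 genes, and 0 passed. Ube2c stood at 103, 52.4, 80.3 and 51.9 in the primary tumours and at 112, 121, 47.7 and 164 in the metastases (adjusted p = 0.396). Bub1b stood at 56.5, 37.4, 48.9 and 37.7 and at 75.2, 74.1, 30.2 and 58.3 (adjusted p = 0.535). Lung metastasis 3 was the lowest of 8 libraries for all 5 genes. Without it Ube2c had a change of 0.91 (SE 0.242, adjusted p = 0.0413) and Bub1b of 0.62 (0.0629).

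Centromere, spindle and cytokinesis genes had a higher median change than the helicase genes, 0.46 against 0.04, and a shallower low in lung metastasis 3. All 9 changes were positive (0.22 to 0.79) and 0 passed. Kif20a, a kinesin of cytokinesis, stood at 16.5, 14.3, 17.3 and 18.7 in the primary tumours and at 30.6, 59.7, 15.7 and 26.2 in the metastases (log2 change 0.79, SE 0.344, adjusted p = 0.199). The primary tumours were close together and lung metastasis 2 carried the highest level. Kif11, the motor that separates spindle poles, stood at 68, 39.9, 50.3 and 48.5 and at 71.2, 107, 46.4 and 85.5 (adjusted p = 0.25). Cenpf, a kinetochore protein whose promoter with 1 CHR match is shown above, stood at 95.9, 51.4, 108 and 60 and at 135, 143, 70.5 and 123 (adjusted p = 0.259). Lung metastasis 3 was the lowest metastasis for all 9 genes but lay below every primary tumour for only 2 of them, against 8 of the 9 helicase genes. Without lung metastasis 3 Kif20a (1.08, SE 0.269, adjusted p = 0.0321) and Kif11 (0.76, SE 0.198, 0.0384) were past the threshold, and Cenpf (0.82, 0.0585) was not. The other 6 genes, Cenpa, Cenpe, Kif23, Tpx2, Nusap1 and Birc5, had changes of 0.22 to 0.61 with all libraries.

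**Figure D3:**
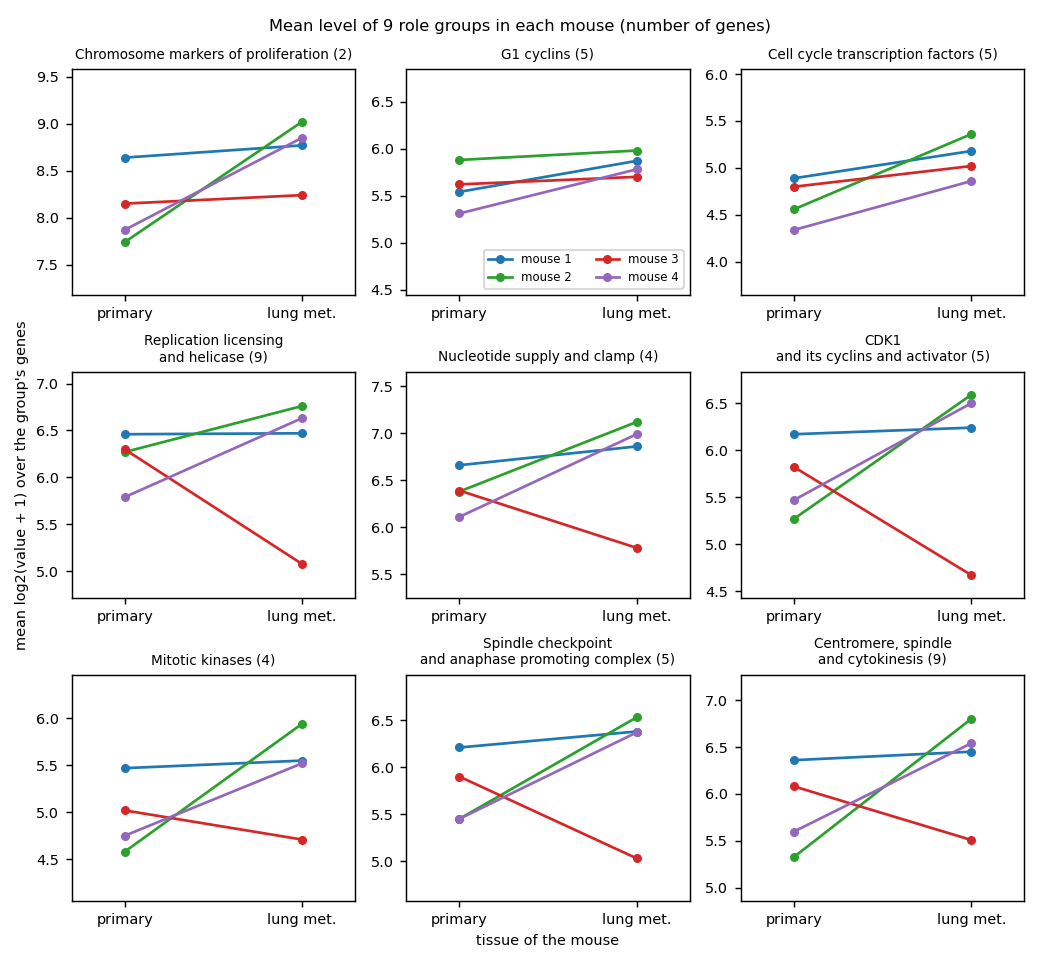
Mean log2(value + 1) of the genes of each role group (panels, number of genes in brackets) in the primary tumour and the lung metastasis of each mouse, joined by a line; every panel spans 2.4 log2 units. Lines of mice 2 and 4 go up in all 9 panels, mouse 1 is nearly flat in most, and mouse 3 goes down in 6, deepest for the helicase and CDK1 groups.

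Other genes of the pathway were taken from a list of 163, chosen with earlier results of these data known. Of the 163, 160 were in the table and 158 were tested. Of these, 5 rose and 0 fell (7.18% and 1.96% of all genes), and the median log2 change was 0.17. Besides Cdkn2d (named after its values were seen), these were Cdkn1c, Cdkn2b, Cdc25b and Dck, so 3 of the 5 encode CDK inhibitors, proteins that halt the cycle. Among them Cdkn1c entered the test through the metastases, as given below. Of 33 tested genes of origin recognition and the replication fork 0 passed, with a median of 0.02, and of 30 genes of spindle motors and cytokinesis 0 passed, with a median of 0.32 and 28 positive changes. Without lung metastasis 3, 14 pathway genes were called higher and 0 lower, against 5.82% and 2.74% of all genes in that fit. These added Chek1, Clspn, Spc24, Ncapg2, Anln, Hmmr, Dlgap5, Ckap2 and Pbk, 2 genes of the replication checkpoint and 7 of chromosome segregation and mitosis. Lung metastasis 3 was the lowest metastasis for 125 of the 160 pathway genes, so leaving it out favours higher counts here too. Chek1, the checkpoint kinase, stood at 46.8, 51.5, 36.2 and 32.4 in the primary tumours and at 57.4, 80.4, 25.1 and 77.5 in the metastases, again lowest in lung metastasis 3.

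Among CDK inhibitor genes 3 of 7 tested rose and 0 fell, against 7.18% and 1.96% of all genes. Of the 8 listed, 4 had their highest level among the metastases in lung metastasis 3, for which no share over all genes was computed. Another 2, Cdkn2c and Cdkn3, had their lowest there, against 40.0% of all genes. Cdkn1c (p57) stood at 0.715, 0.868, 1.28 and 1.13 in the primary tumours and at 13.2, 11.9, 22.2 and 4.79 in the metastases, a log2 change of 2.66 (SE 0.404, adjusted p = 0.00246). Primary tumours 1 and 2 were below the filter value of 1, so Cdkn1c entered the test through the metastases and its call is descriptive. At a filter value of 5 it was not tested. Cdkn2b (p15) stood at 1.03, 1.06, 1.15 and 1.62 and at 5.54, 12.1, 12.7 and 6.89 (2.15, SE 0.325, 0.00235). Cdkn2d (p19) stood at 2.38, 1.85, 2.33 and 3.24 and at 10.4, 5.8, 9.94 and 5.5 (1.33, SE 0.305, 0.0208). In these 3 genes every metastasis exceeded every primary tumour, as in 10.4% of all genes, and the genes were higher in the metastasis of 4 of 4 mice. The 3 were called on these same values, so this order adds no separate evidence. The call of Cdkn2d ended with the mouse as a block (adjusted p = 0.0548), without primary tumour 1, 2 or 3 or lung metastasis 1 (0.0562 to 0.0836) and without both libraries of mouse 1, 2 or 3 (0.0842 to 0.19), and that of Cdkn1c without both libraries of mouse 1 (0.0612). Cdkn1a (p21), the p53-induced inhibitor, stood at 24.1, 50.6, 24 and 29.2 in the primary tumours and at 51.6, 63.7, 134 and 49.7 in the metastases (adjusted p = 0.0656), with its highest level in lung metastasis 3. Cdkn1b (p27) stood at 109, 132, 140 and 138 and at 142, 136, 219 and 142 (adjusted p = 0.421). Cdkn2c, an INK4 inhibitor, was the exception in direction, at 124, 209, 139 and 133 against 120, 99, 32.2 and 129 (log2 change -0.81, adjusted p = 0.249). Cdkn2a was below the filter, with 19 reads over the 4 primary tumours and 117 over the 4 metastases. The locus is known to encode more than one product from shared exons, so these reads cannot be given to a single product.

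Cdc25b, a phosphatase that activates CDKs, and Dck, which salvages deoxynucleosides, rose with narrow spreads. Cdc25b stood at 23.4, 26.3, 30.5 and 25.2 in the primary tumours and at 50.1, 52.8, 56.2 and 44.1 in the metastases (log2 change 0.92, SE 0.171, adjusted p = 0.00752). Dck stood at 40.6, 39.8, 33 and 28.8 and at 65, 70.8, 75.6 and 60.5 (0.93, SE 0.173, 0.00785). Both were highest in lung metastasis 3. Both calls ended without mouse 1 or mouse 2, and that of Dck also without mouse 4 (adjusted p 0.0537 to 0.117). Rb1, the pocket protein that restrains E2F, stood at 16.3, 22.3, 18.6 and 19.2 in the primary tumours and at 35.9, 31.7, 42.5 and 24.7 in the metastases (log2 change 0.77, SE 0.217, adjusted p = 0.0526), with no overlap between the groups (10.4% of all genes) and a call by edgeR (0.0496) and DESeq2 (0.00509).

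**Figure D4:**
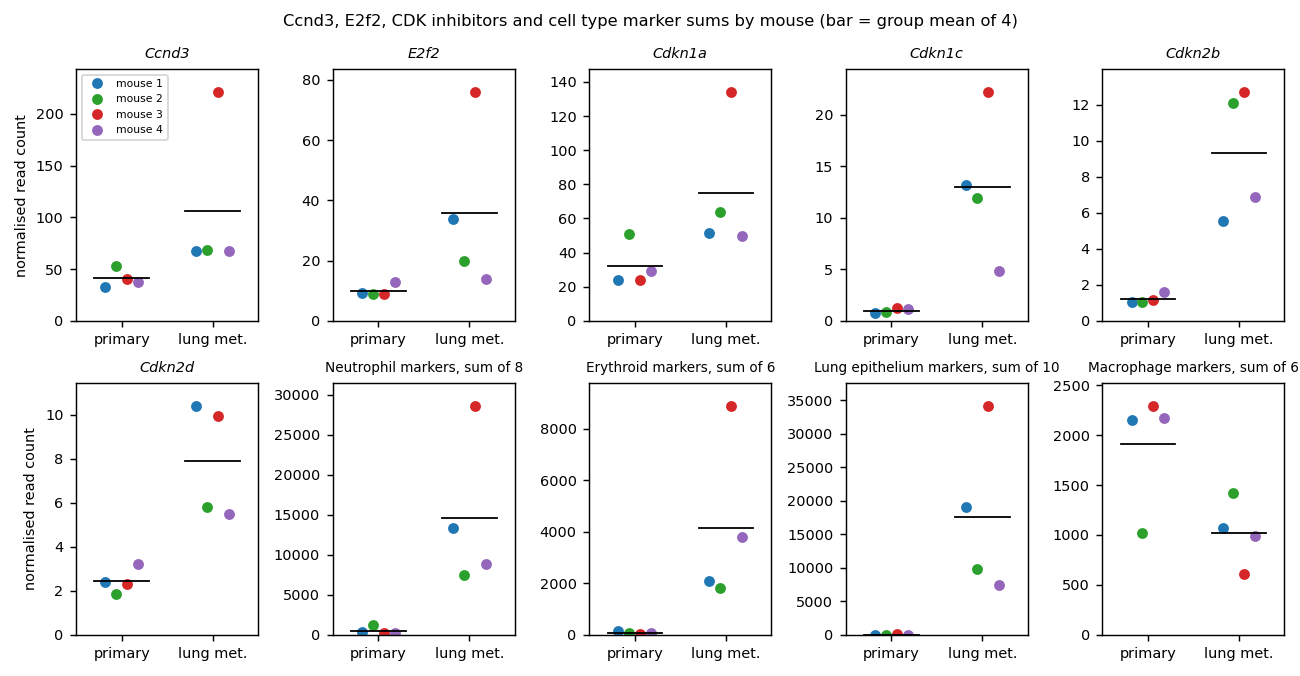
Normalised read counts of Ccnd3, E2f2 and 4 CDK inhibitor genes, and the summed normalised read count of 4 cell type marker lists, in each of the 8 libraries; points are mice, bars are means of 4, and every axis starts at 0. Lung metastasis 3 (red) is the highest library for Ccnd3, E2f2, Cdkn1a, Cdkn1c and Cdkn2b and for the neutrophil, erythroid and lung epithelial sums, and the lowest for the macrophage sum.

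Markers of several non-tumour cell types also differed between the tissues. Their lists were chosen with earlier results of these data known. Counts of called markers stand against 7.18% of all genes called higher and 1.96% called lower. All 10 lung epithelial markers and all 8 neutrophil markers rose, as did the 4 erythroid markers that could be tested of 6 in the table. Sftpb, Sftpa1, Sftpd and Lamp3 stayed below 1 in every primary tumour, and Ly6g and Cd79b (a B cell marker) in most. These markers entered the test only through the metastases, where they were high, so their calls are descriptive. The neutrophil sum was 196 to 1170 in primary tumours and 7490 to 28600 in metastases, and Ly6g had 0 reads in primary tumours 1 and 3. The erythroid sum was 45.9 to 154 against 1820 to 8870; its globin genes are close copies of each other, so only the sum is given. Granulocyte precursor markers summed to 6.82 to 60.7 against 34.4 to 178, and 2 of 6 rose, Mpo and Ctsg. All 8 neutrophil, all 6 precursor and all 6 erythroid markers were highest in lung metastasis 3, the library with the highest Ccnd3, E2f2 and Cdkn1a. No share over all genes was computed for this rank. The endothelial sum was 98.8 to 551 against 366 to 1510 (3 of 5 rose), also highest in lung metastasis 3. Of 8 T and NK cell markers 2 rose, and of 4 B cell markers the 1 that could be tested rose. Of 6 fibroblast markers 1 rose, and of 6 macrophage markers 0 were called. In lists this short, counts of 1 or 0 are close to the shares of all genes and are not read as results about the cell types. The macrophage markers had log2 changes from -1.16 (C1qa) to -0.32 (Cd68). Their sum was 1020 to 2290 in primary tumours and 610 to 1420 in metastases. The tumour epithelial sum was 1570 to 2900 in primary tumours and 1630, 1670, 1020 and 3410 in lung metastases 1 to 4. Its low in lung metastasis 3 came from the keratins Krt8 (225 there, 620 to 1460 in the other metastases) and Krt18 (196, against 554 to 1170), the 2 of 9 markers that were lowest in that metastasis. Cdh1 (E-cadherin) was highest there, at 166 against 54.4 to 123, and the other 6 markers lay between the other metastases. Krt19 rose from a mean of 14.1 to 123 (log2 change 3.03, SE 0.321, limma adjusted p = 0.000337) and Cldn4 fell from 114 to 20.1 (-2.80, SE 0.559, 0.0109), so the list did not move one way. In metastases, reads of these epithelial markers cannot be divided between tumour and lung epithelium. The part of the listed cell types in the cell cycle results was not tested.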

How the data were processed

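Bulk tissue RNA was extracted with a Qiagen kit and sequenced from TruSeq libraries, per the labels' protocols. The genome build was mm9, per the submitters' processing notes. For the aligner, counter and gene models the entry is: not given in the sources used here. The deposited table holds signal values, which behave as gene reads divided by a scaled library size; as BC columns sum to 962401 to 1044330, they were not treated as CPM. In every BC column 100% of values were whole multiples of 1 read (tolerance 0.05 reads), which recovered 15447918 to 28995834 reads per library, so 1 read was worth 0.0337 to 0.0676.

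Limma 3.58.1 with an intensity trend was fitted on log2(value + 1) with group means for genes reaching 1 in at least 4 libraries. The pseudocount shrinks fold changes of weakly expressed genes, and p-values are Benjamini-Hochberg adjusted over all genes tested. Alternatives were pseudocounts of 0.1 and 5, filters, scalings, edgeR 4.0.16 and DESeq2 1.42.0 on recovered reads, array weights, a mouse block, and leaving out libraries or mice; 2 combinations with lung metastasis 3 or mouse 3 left out were added after seeing the data. Scripts were tested on simulated data. Tissues of the same mouse share a number, which pairs them; their deviations from the group means correlated at 0.1, -0.15, 0.03 and 0.01 in mice 1 to 4.

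Genes named with values were Mki67, Top2a, called genes, the 2 (3 in groups of 9) with the smallest p in each of 9 role groups, and, of the pathway list, 5 inhibitor and checkpoint genes and up to 4 called genes per direction; others were named after their values were seen. The genes, lists and tests were chosen with earlier results of these data known.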

Additional observations from a re-analysis of the deposited data

Results flagged for a closer look

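In groups of 4 libraries, a value was singled out when its gap to the nearest other library took a share of the group's range above Dixon's 95% critical value. Over 58 genes in 2 groups (116 groups, of which chance flags about 1 in 20) 10 values met this, and 7 of them were of lung metastasis 3. In that library Mcm3 (0.912), Mcm4 (0.892), Cdc25c (0.941) and Cdc20 (0.882) were low, and Ccnd3 (0.997), Cdkn1a (0.834) and Cdkn1b (0.925) were high. Primary tumour 4 was high for E2f2 (0.912) and low for Cdc6 (0.895) and Mcm2 (0.908).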

How the results depend on the processing

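The median log2 change of the 48 genes kept its sign under every alternative run (0.10 to 0.66, main value 0.35). The number of the 48 called higher (1) became 0 with equal column totals and with the mouse as a replicate block, 2 with edgeR, 3 with DESeq2, 15 with array weights, 6 with edgeR without lung metastasis 3, 5 with the replicate block without mouse 3, and 0 to 11 when a library or mouse was left out. The counts with array weights and without lung metastasis 3 are descriptive, as given above. Pathway genes called higher (5) became 8 with DESeq2, 25 with array weights, 13 with edgeR without lung metastasis 3, and 1 to 14 when a library or mouse was left out; 1 was called lower with DESeq2 and 1 with array weights. Over all genes, 1005 higher became 644 with a filter at 5, 1536 with array weights, 625 with edgeR without lung metastasis 3, 596 with the replicate block without mouse 3, and 200 to 877 with a library or mouse left out. The 274 lower became 517 with DESeq2, 747 with array weights, 176 with the replicate block, 156 with the block without mouse 3, and 20 to 370 with a library or mouse left out. Of 749 alternative values for 30 named genes, 666 kept direction and side of the threshold, 27 lost and 52 gained a call, and 4 changed sign. These were Mcm7 with array weights (0.02), without lung metastasis 3 (0.02) and with edgeR without it (0.04; -0.43 to 0.02 with a library or mouse left out), and Mcm4 without mouse 4 (-0.13; -0.13 to 0.78 with a library or mouse left out). The cause of these changes was not tested. With 85 or more reads of each of the 48 genes per library, the spread between 4 mice limits precision more than counting does.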
